A study of Mus musculus with 6 samples.

Results

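The cells described here are activated conventional CD4 T cells from the CD45+ compartment of mouse mammary tumours, profiled by droplet single-cell RNA sequencing. They were chosen by transcript counts: at least 2 unique molecular identifiers (UMIs, each standing for 1 captured transcript) of Cd3e, Cd3d and Cd3g together, at least 1 of Cd4, none of Foxp3, Cd8a, Cd8b1 or Cd79a, fewer than 10 of C1qa, C1qb and C1qc together, and at least 2 of Tnfsf8, Cd40lg, Icos and Tnfsf11 together. Of 26843 cells with at least 200 detected genes and at most 15% mitochondrial counts, 2133 met this rule, and they are called the activated cells below. The 5 libraries carry the labels MRX, CTX, Combined, ctxd18t and combod18t, with 1 library per label, and values listed for all 5 follow that order. The series title names MERTK inhibition and cyclophosphamide, while the labels give only these short names and do not spell out what each mouse received. One protocol text is attached to every library: mice of day 7 treated 3 hours before harvest, digested tumours, and a sort for DAPI- CD45+ cells. It assigns MRX, CTX and Combined, with a library labelled VC that was not analysed here, to multiplexing barcodes of one chip run, and names no barcode for ctxd18t and combod18t, whose labels contain the number 18. The mouse strain, the tumour model, the age and number of animals per library and the doses are not given in the sources used here. With 1 library per label, no difference between libraries has a replicate check, and every interval below covers counting error only (95%).

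Conventional CD4 T cells leave the naive state when their antigen receptor meets peptide on MHC class II together with costimulation. Activated cells then display CD40 ligand (Cd40lg), which licenses dendritic cells, macrophages and B cells through CD40; CD30 ligand (Tnfsf8); RANK ligand (Tnfsf11); and ICOS, a costimulatory receptor of the CD28 family. According to the signals they receive, they secrete interferon gamma, interleukin 17, interleukin 10 or other products, and in tumours they are found beside Foxp3+ regulatory T cells, which express many of the same activation genes.

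The values that chose the cells are given as a description. The members of the 5 libraries carried a median of 9, 11, 15, 12 and 5 UMIs of the 4 activation genes. Icos was the gene most often behind the choice, with a UMI in 89.1%, 92.9%, 95.8%, 86.8% and 86.9% of the cells. Tnfsf8 had a UMI in 54.7%, 62.9%, 70.6%, 58.0% and 56.0%, and Cd40lg in 48.1%, 47.5%, 41.6%, 52.1% and 35.1%. Tnfsf11, the least widespread, had one in 24.4%, 40.3%, 42.7%, 30.7% and 9.73%. Just inside the threshold, with exactly 2 UMIs, lay 30, 43, 15, 26 and 157 cells, and just outside it, with 1 UMI, lay 31, 64, 19, 22 and 203 cells of the otherwise identical gate. The combod18t library held both the largest number of cells at the edge and the lowest median.

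Genes the rule did not use bore out the label for 4 of the 5 libraries more clearly than for combod18t. Cells of all 5 carried Cd28, the receptor for the B7 ligands, at 530, 306, 403, 528 and 521 counts per 1000000 (CPM, of the summed counts of the activated cells of a library). Tnfrsf4 (OX40), a receptor displayed after activation, had a UMI in 59.1%, 69.6%, 74.4% and 55.5% of the cells of the first 4 libraries and in 27.9% of those of combod18t. In B cells, which should lack it, the share was at most 0.932% in any library. Lef1, a transcription factor of naive T cells, had a UMI in 52.5%, 50.5%, 45.0%, 65.6% and 88.1% of the activated cells, against 1.11% to 2.98% of B cells. By this gene most cells chosen in MRX, CTX and ctxd18t carried a naive-type transcript too, so combod18t differed in degree. In all 5 libraries, and most of all in combod18t, the name stands for the rule rather than for a uniformly activated state. Regulatory-type transcripts occurred too: Ikzf2 (Helios), a factor of regulatory T cells, had a UMI in 31.9%, 50.7%, 51.5%, 44.2% and 15.8% of these Foxp3-negative cells.

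Depth and transcripts of other cell types differed between the libraries and bear on the results. The activated cells had a median of 4929, 7944, 7635, 7351.5 and 6839 UMIs, with B cells of the same libraries at 5181.5, 4111.5, 4473, 7827 and 8214.5. Markers of macrophages summed to 1484, 2206, 2499, 1211 and 313 CPM in the activated cells, with 0 of 11 markers at 0 in any library, and reached 19774 to 28845 CPM in the macrophages themselves. Natural killer cell markers summed to 49.3, 106, 131, 144 and 58.3 CPM with Klra8 at 0 throughout, and neutrophil markers to 182, 74.6, 61.6, 649 and 37.7 CPM. B-cell markers summed to 45.3 to 107 CPM, with Ms4a1 at 0 in the first 3 libraries, and epithelial markers to 7.20 to 24.1 CPM. Dendritic cell markers summed to 13.1 to 44.1 CPM, markers of gamma-delta T cells to 5.78 to 20.3 CPM over the 2 of 4 genes in the files, and Zbtb16 of invariant T cells to 1.16 to 12.4 CPM. At least 2 UMIs of macrophage, B-cell, natural killer, dendritic, neutrophil or epithelial markers were found in 128, 275, 155, 183 and 300 of the activated cells (40%, 63.4%, 59.2%, 56.1% and 37.9%). Those cells were deeper, with a median of 5691, 10580, 11141, 8099 and 7596.5 UMIs against 4724, 5211, 5145, 6959 and 6616 in the rest. Below, the former are called cells holding other-lineage UMIs. The rest, with fewer than 2 such UMIs, are called cells without other-lineage UMIs. Of cell barcodes, 33 were shared between the kept cells of CTX and combod18t and 20 between Combined and ctxd18t; 7 and 2 of these were activated cells in one library of the pair, 0 were in both, and no shared barcode had the same counts in both.

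The activated cells made up 5.88% (320 of 5440, interval 5.27 to 6.54), 4.88% (434 of 8898, 4.44 to 5.35), 5.85% (262 of 4476, 5.18 to 6.58), 8.13% (326 of 4011, 7.30 to 9.02) and 19.7% (791 of 4018, 18.5 to 21.0) of all filtered cells. Their share was highest in combod18t, 11.6 percentage points above ctxd18t (10.1 to 13.1). With every cell thinned to 2000 UMIs this difference was 2.42 points (1.44 to 3.40). The Combined library exceeded CTX by 0.976 points (0.175 to 1.82) and differed from MRX by -0.0289 points (-0.954 to 0.910). CTX differed from MRX by -1.0 points (-1.79 to -0.249). Without activated cells holding other-lineage UMIs, with all other cells kept, Combined against MRX was -1.14 (-1.82 to -0.447) and CTX against MRX -1.77 (-2.37 to -1.21).

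As a share of the cells that passed the CD3 gate (2050, 2178, 1288, 1385 and 2658 cells) the activated cells were 15.6%, 19.9%, 20.3%, 23.5% and 29.8%. On this base CTX lay above MRX by 4.32 points (2.01 to 6.61), the opposite direction to that over all cells, and Combined above MRX by 4.73 (2.06 to 7.47). Combined against CTX was 0.415 (-2.31 to 3.22), and combod18t exceeded ctxd18t by 6.22 (3.35 to 9.01). After thinning all 4 intervals include 0: CTX against MRX was -0.0436 (-2.11 to 2.01), Combined against MRX 2.09 (-0.383 to 4.68), Combined against CTX 2.13 (-0.318 to 4.71) and combod18t against ctxd18t -0.533 (-2.90 to 1.73). A further setting left out activated cells holding other-lineage UMIs and kept all other cells of the base. CTX against MRX was then -1.63 (-3.47 to 0.198) and Combined against MRX -0.546 (-2.66 to 1.69), so both signs turned. The setting removed 40%, 63.4% and 59.2% of the activated cells of MRX, CTX and Combined, so by itself it lowers their shares by unlike amounts. How much of the turn this makes was not tested. With at least 3 activation UMIs combod18t against ctxd18t was 2.19 (-0.555 to 4.86).

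Within the conventional CD4 gate, which is the same rule without the activation genes, the order was different. There the activated cells were 81.0%, 76.3%, 82.9%, 87.6% and 65.4% of 395, 569, 316, 372 and 1210 cells. The combod18t share was 22.3 points lower than that of ctxd18t (difference -22.3, -26.3 to -17.7), and this library held the most conventional CD4 cells, 216 resting ones among them. Combined lay 6.64 points above CTX (1.02 to 11.9). CTX against MRX (-4.74, -9.85 to 0.578) and Combined against MRX (1.90, -3.87 to 7.50) had intervals that include 0. Other treatments of the cells moved both. After thinning CTX against MRX was -13.3 (-20.7 to -5.66). Without activated cells holding other-lineage UMIs, with the other cells of the gate kept, it was -17.8 (-25.5 to -9.85). Both intervals exclude 0, and the second setting removes unlike parts of the activated cells of these libraries. Combined against MRX changed sign, to -4.58 (-13.0 to 3.77) and -5.45 (-14.6 to 3.43). Foxp3+ CD4 cells of the same gate numbered 84, 167, 137, 95 and 136. Shares of a sorted suspension describe the cells recovered, and more cells of this kind cannot be told apart from fewer of the others.

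**Figure D1:**
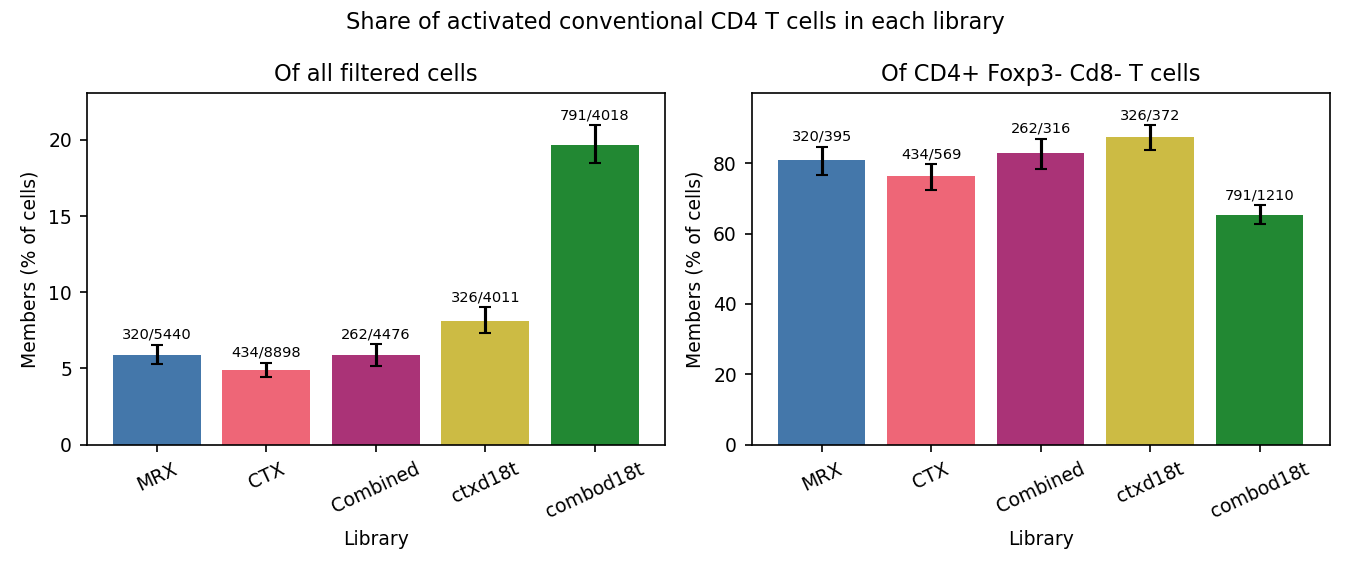
Activated conventional CD4 T cells (members) as a percentage of all filtered cells (left) and of CD4+ Foxp3- Cd8- T cells (right) in each of the 5 libraries; bars are shares, error bars exact 95% binomial intervals, and the numbers are cells. The combod18t bar is the highest on the left at 19.7% and the lowest on the right at 65.4%.

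Secreted products varied widely between libraries. Penk encodes preproenkephalin, the precursor of the enkephalin opioid peptides. Its level was 166, 1089, 678, 1619 and 216 CPM, from 22, 111, 47, 64 and 43 cells. Ccl1, a chemokine that binds CCR8, was at 3.60, 485, 500, 341 and 26.7 CPM, from 6, 78, 39, 20 and 13 cells. Both genes were low in MRX and combod18t and high in the other three. Csf2 (GM-CSF), a growth factor of myeloid cells, followed the same order at 0.514, 64.0, 110, 63.3 and 17 CPM, from 1, 30, 22, 12 and 3 cells. Ccl3 and Ccl4, chemokines that attract myeloid cells and T cells, were at 1.03, 179, 111, 68.5 and 5.24 CPM and at 6.16, 223, 106, 192 and 23.3 CPM. Few cells carried these transcripts, and single cells held large parts of them: 66.9% of the ctxd18t counts of Ccl1, 50.1% of the CTX counts of Ccl4 and 49.0% of the Combined counts of Ccl3 came from 1 cell each.

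Ifng (interferon gamma), the main product of T helper 1 cells, was at 33.4 (interval 25.8 to 42.6), 266, 537, 125 and 22.9 CPM. It had a UMI in 25, 109, 65, 47 and 29 cells, which is 7.81%, 25.1%, 24.8%, 14.4% and 3.67%, against 0.311% to 0.669% of B cells. With every cell thinned to 2000 UMIs the shares were 3.12%, 14.8%, 13.0%, 6.75% and 1.52%, so CTX and Combined remained the highest at equal depth. Xcl1, the chemokine that attracts XCR1+ dendritic cells, was at 69.9, 334, 741, 65.0 and 23.6 CPM, from 19, 66, 59, 22 and 17 cells. The Ifng order placed combod18t and MRX lowest, while the Xcl1 order set Combined and CTX apart from the other three.

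The 250 bases before the annotated starts of 3 of these genes are shown because Ccl1, Ifng and Xcl1 spread so widely between libraries and T-cell receptor signals reach such genes through NFAT, whose sites hold the core GGAAA. They are RefSeq sequences of build GRCm38.p6, printed 5′ to 3′ on the gene's strand, with GGAAA on either strand in capitals. Ccl1 lies at chr11:82179813-82180062 on the minus strand, Ifng at chr10:118440796-118441045 on the plus strand and Xcl1 at chr1:164935523-164935772 on the minus strand.
Ccl1: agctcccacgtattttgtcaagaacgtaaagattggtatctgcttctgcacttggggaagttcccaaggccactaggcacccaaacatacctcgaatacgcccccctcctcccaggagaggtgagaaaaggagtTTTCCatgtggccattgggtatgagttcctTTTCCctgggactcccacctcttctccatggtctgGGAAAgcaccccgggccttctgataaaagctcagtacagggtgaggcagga
Ifng: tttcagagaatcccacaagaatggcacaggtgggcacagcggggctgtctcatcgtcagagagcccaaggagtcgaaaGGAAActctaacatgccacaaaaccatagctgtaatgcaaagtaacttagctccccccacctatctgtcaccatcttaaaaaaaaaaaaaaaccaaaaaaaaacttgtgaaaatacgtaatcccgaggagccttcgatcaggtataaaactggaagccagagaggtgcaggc
Xcl1: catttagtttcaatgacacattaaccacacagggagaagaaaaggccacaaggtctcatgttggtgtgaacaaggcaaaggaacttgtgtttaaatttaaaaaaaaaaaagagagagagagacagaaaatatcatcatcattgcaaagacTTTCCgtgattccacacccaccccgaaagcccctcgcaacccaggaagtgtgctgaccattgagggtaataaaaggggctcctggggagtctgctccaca
The Ccl1 window holds the core 3 times, and the Ifng and Xcl1 windows hold it 1 time each. The AP-1 site TGANTCA, searched on both strands, is in none of the 3. Of 32851 windows of this length in the same table, 55.6% hold GGAAA and 6.75% hold TGANTCA, so a match of the short core is common, and these matches describe letters, not binding. The files' counts were made on another build (GRCm39), so only the sequences, not positions in the files, are compared.

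**Figure D2:**
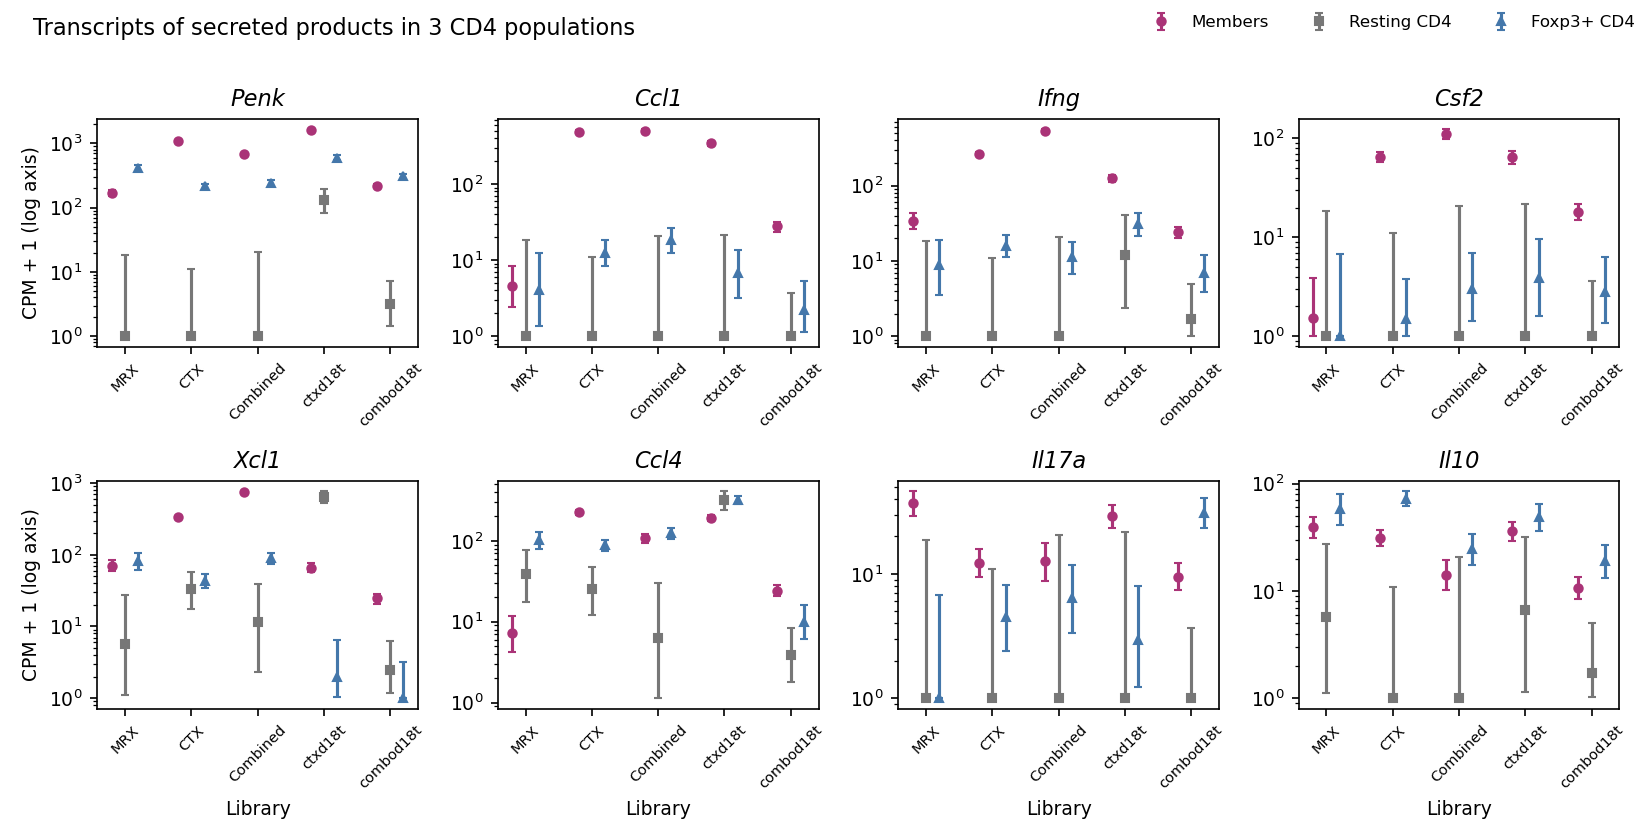
Levels of 8 secreted products (CPM + 1, log axis) in the activated cells (members), in resting conventional CD4 cells and in Foxp3+ CD4 cells of each library; points are levels of summed counts and bars exact 95% Poisson intervals. Penk, Ccl1, Csf2 and Ccl4 of the activated cells are lowest in MRX and combod18t, and Ifng is highest in Combined at 537 CPM.

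Combined against CTX sets 1 library against another, and the labels do not spell out the treatments. The pair thus describes these libraries and cannot say what a combination adds. A gene is called here when its CPM differed at least 2-fold (a log2 ratio of CPM + 1 of at least 1 in size) among genes with at least 50 counts over the pair and 50 CPM in one of the pair. Genes low in both libraries are thus not tested, and a gene low in one can pass through the other alone, so counts and medians over tested genes of a list are partly set by this filter. Of 3880 such genes, 5 were called higher (0.129%) and 5 lower (0.129%). The higher genes were the cytotoxic and effector genes Gzmc, Gzma, Prf1, Xcl1 and Ifng. Ifng differed by a log2 ratio of 1.01 (0.90 to 1.13) and Xcl1 by 1.15 (1.05 to 1.25). Prf1 (perforin) differed by 1.36 (1.04 to 1.76) and Gzma (granzyme A) by 1.21 (1.06 to 1.38). The lower genes were Gm15056, Ccl8, Ccl4 (-1.06, -1.27 to -0.88), Mt1 and Gngt2.

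Of these higher calls Ifng fell under 2-fold without its top cells, and 4 turned among cells with fewer than 2 UMIs of other lineages. The cell with the most Ifng UMIs held 27.4% of the Combined counts and 18.7% of the CTX counts, and without these cells the level was 394 against 217 CPM (log2 ratio 0.86). Without their top cells Xcl1 (1.03), Prf1 (1.38), Gzma (1.36) and Gzmc (1.40) stayed past 2-fold. Among cells without other-lineage UMIs Ifng was at 72.5 CPM in Combined, from 16 of 107 cells, and at 227 CPM in CTX, from 29 of 159 cells, so the order was reversed (log2 ratio -1.63). Xcl1 turned in the same way, at 239 against 382 CPM (-0.68), as did Prf1 (-0.80) and Gzma (-0.91). The share of cells with an Ifng UMI, 24.8% against 25.1%, did not separate the libraries. For Gzmc, 1 cell held 84.4% of the Combined counts.

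Genes induced by interferon gamma lay mostly on the Combined side. Of the 9 genes of this list that were tested, 8 were above 0, with a median log2 ratio of 0.54 against 0.06 over all genes, and 0 of 9 were called. Other lists leaned too: 3 of 3 tested type 17 genes were above 0 (median 0.75), 5 of 6 type I interferon genes were above 0 (0.26) and 12 of 14 cell-cycle genes below 0 (-0.19). Iigp1, an interferon-induced GTPase, was at 47.3, 61.2, 119, 120 and 154 CPM over the 5 libraries. Socs1, a feedback inhibitor of cytokine signalling, was at 119, 98.9, 185, 153 and 88.3 CPM, a log2 ratio of 0.90 (0.72 to 1.1) for Combined against CTX. Of the other lists, 0 of 12 costimulatory receptors, 0 of 7 inhibitory receptors, 0 of 10 T-cell receptor response genes, 0 of 14 cell-cycle genes and 0 of 10 naive and resting genes were called between these libraries.

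Between the libraries whose labels contain 18, the activated cells of combod18t and ctxd18t differed widely: of 4103 genes, 83 were called higher (2.02%) in combod18t and 272 lower (6.63%). Lower calls included 8 of 9 tested secreted products, 10 of 12 T helper 1 genes, 5 of 8 inhibitory receptors, 4 of 6 cell-cycle genes and 4 of 8 glycolysis genes. The list medians of tested genes were log2 ratios of -2.76, -1.23, -1.29, -1.31 and -1.01, against 0.00 over all genes. Of the 8 secreted products called, 7 were under 50 CPM in combod18t and passed through ctxd18t alone. With no filter 17 of the 18 genes of that list were below 0, with a median of -2.0, and the other medians were -1.13, -1.48, -1.48 and -0.90, against -0.02 over 17823 genes with a count. Higher calls included 6 of 13 naive and resting genes, with a median of 0.86. Ifng differed by -2.40, Penk by -2.90 and Ccl1 by -3.63. For Ccl1, 1 cell held 66.9% of the ctxd18t counts and 1 cell 46.6% of the combod18t counts; without them the levels were 113 and 14.3 CPM (-2.90). The interferon gamma response list had no such shift, with 0 of 8 called and a median of -0.02. Of the marker lists, 4 of 4 tested macrophage genes (Lyz2, Apoe, Fcer1g and Tyrobp), the neutrophil genes S100a8 and S100a9 and the natural killer gene Klrd1 were called lower too, and their part in the other calls was not tested.

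Naive-type genes lay on the combod18t side. Lef1 was at 402, 209, 155, 767 and 1735 CPM. Satb1, a chromatin organiser of T cells, was at 663, 440, 445, 1203 and 3162 CPM, and Bach2, a repressor that restrains effector genes, at 514, 265, 266, 771 and 2181 CPM. Il7r, the receptor for the survival cytokine interleukin 7, was at 763, 327, 372, 708 and 1692 CPM, and S1pr1, which guides exit from lymphoid organs, at 245, 101, 80.5, 197 and 423 CPM. All 5 were highest in combod18t. Tcf7 differed less between the last 2 libraries, at 292, 145, 180, 352 and 424 CPM, as did Klf2, at 346, 130, 171, 654 and 693 CPM.

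When only activated cells without a Lef1 UMI were compared, 94 remained in combod18t and 112 in ctxd18t, and fewer genes were called lower: 116, with 78 higher. Penk was then at 1106 against 3286 CPM (log2 ratio -1.57, -1.68 to -1.46), and Ccl1 at 156 against 905 CPM (-2.53). The cell with the most Ccl1 UMIs held 70.8% of these ctxd18t counts and 60.3% of these combod18t counts. Without that cell in each library Ccl1 was at 63.3 against 268 CPM (-2.07), and with the ctxd18t cell alone left out the levels are 156 and 268 CPM, less than 2-fold apart. Penk without its top cells was at 770 against 2662 CPM (-1.79). Ifng was at 127 against 199 CPM (-0.64, -1.0 to -0.30). Csf2 (-0.03, -0.41 to 0.35), Cxcr6 (-0.05, -0.27 to 0.18), Mki67 (-0.15, -0.56 to 0.26) and Havcr2 (-0.20, -0.50 to 0.09) had intervals that include 0. Csf2 of these combod18t cells came from 3 cells, 1 of which held 68.3% of the counts, and without the top cell of each library it was at 41.3 against 90.1 CPM (-1.11). Satb1, 3162 against 1203 CPM in all activated cells, was at 337 against 364 CPM in these. Penk thus stayed past 2-fold among cells without Lef1, while the size of the Ccl1 difference rested on single cells. Gzmb (-1.96) and Ccl4 (-4.23) lay farther apart in these cells than in all activated cells. In the combod18t cells with a Lef1 UMI, 22.7% had one of Tnfrsf4 and 15.9% one of Mki67 or Top2a. In those without, the shares were 67.0% and 40.4%, at a median of 6830 and 7105 UMIs.

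Some of the largest differences between these libraries were single cells. One cell held 100% of the ctxd18t counts of Gzme and of Gzmd, 96.7% of those of Gzmc and 86.2% of those of the neutrophil gene S100a8. Heat shock genes were not of this kind: Hspa1a was at 20.5, 21.7, 19.7, 97.9 and 2.62 CPM, from 15, 25, 12, 60 and 13 cells, and Hspa1b at 45.2, 26.8, 28.7, 152 and 6.22 CPM. Both are raised by tissue digestion, and the immediate early gene Jun moved with them at 58.6, 64.2, 60.4, 151 and 23.3 CPM. The part of handling in the other differences between ctxd18t and combod18t was not tested.

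**Figure D3:**
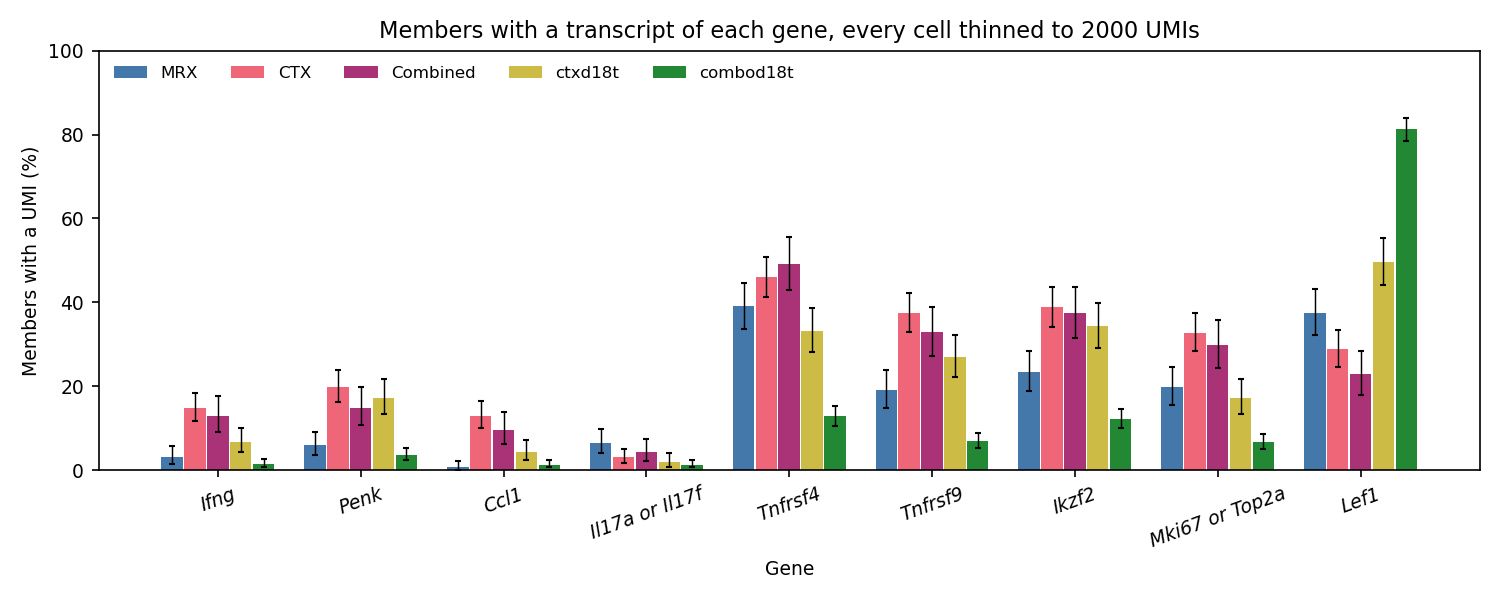
Percentage of activated cells (members) with at least 1 UMI of a gene in each library after every cell was thinned to 2000 UMIs; bars are shares and error bars exact 95% binomial intervals. Lef1 reaches 81.4% in combod18t while Ifng is at 1.52% there, and the Il17a or Il17f share is highest in MRX at 6.56%.

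The activated cells of MRX differed from those of CTX in 133 higher (3.34%) and 98 lower (2.46%) of 3980 genes, taken as CTX against MRX. Combined against MRX gave 107 higher (2.66%) and 57 lower (1.42%) of 4027. Both comparisons use the same MRX library. Secreted products were called higher for 7 of 8 tested genes in each, with medians of 3.96 and 3.93 against -0.03 and 0.04 over all genes. Of the 7, Csf2, Ccl1, Ccl3, Ccl4 and Ifng were under 50 CPM in MRX and passed through the other library alone. Over the whole list of 18 with no filter, 12 were above 0 in CTX (median 0.63) and 13 in Combined (1.53), against medians of 0.04 and 0.08 over genes with a count. Ifng was higher by 2.96 (2.63 to 3.38) in CTX and by 3.97 (3.65 to 4.39) in Combined. Without cells holding other-lineage UMIs Ifng was at 22.6 CPM in MRX, 227 in CTX and 72.5 in Combined, log2 ratios of 3.27 and 1.64, so Combined was then below CTX. Penk was higher by 2.71 (2.55 to 2.88) in CTX and by 2.02 in Combined. Csf2 stood at 277 counts in CTX and 284 in Combined against 1 count in MRX, log2 ratios of 5.42 (4.47 to 12.27) and 6.20 (5.25 to 13.05). These intervals, like the others, are of the ratio of CPM without the added 1, which is larger here than the printed ratio. Beside these, Klrd1 was called higher in CTX, Lyz2 higher in Combined, and S100a8 and S100a9 lower in both, and their part was not tested.

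T helper 1 genes lay mostly on the side of CTX and Combined against MRX: 10 of 13 tested were above 0 in CTX and 9 of 13 in Combined, Ifng included. Tbx21 (T-bet), the factor that directs this fate, was at 24.1, 57.1, 77.1, 39.1 and 17.2 CPM, and Il12rb2, part of the interleukin 12 receptor, at 28.3, 70.9, 64.7, 69.5 and 32.4 CPM. Nkg7, a granule protein, was at 170, 592, 501, 452 and 101 CPM. With Ifng counted, 5 of 13 were called higher in CTX than in MRX and 4 of 13 in Combined, with 0 lower. Il18r1, part of the interleukin 18 receptor, ran the other way, at 475 CPM in MRX, 362 in CTX and 416 in Combined, and so did Stat4, which relays interleukin 12 signals, at 641, 465, 549, 887 and 775 CPM. Cdkn1a, a p53 target that halts the cell cycle, was at 154, 447, 419, 263 and 78.1 CPM, and 1 of 5 tested p53 targets was called lower in CTX, Trp53inp1, at 180, 76.0, 124, 187 and 190 CPM.

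Several type 17 and naive-type genes were higher in MRX than in CTX. Il17f was at 64.2, 20.1, 36.0, 24.2 and 8.02 CPM, and Il17a at 36.0, 11.3, 11.6, 28.0 and 8.51 CPM. Cells with a UMI of either numbered 32, 15, 22, 9 and 16, or 10.0%, 3.46%, 8.40%, 2.76% and 2.02%, against at most 0.417% of B cells. Thinned to 2000 UMIs the shares were 6.56%, 3.00%, 4.20%, 1.84% and 1.27%. Tmem176a and Tmem176b, membrane proteins of type 17 cells that myeloid cells also express, were at 113, 46.0, 77.8, 53.6 and 20.1 CPM and at 142, 45.7, 79.8, 58.5 and 25.5 CPM. The type 17 list was called lower for 3 of 4 tested genes in CTX against MRX and for 0 of 4 in Combined against MRX, and Rora of this list was at 586 CPM in both MRX and CTX and 668 in Combined. Of the naive and resting list, 4 of 11 tested genes were called lower in CTX (S1pr1, Klf2, Tcf7 and Il7r) and 5 of 11 in Combined, with medians of -0.94 and -0.95.

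Interferon gamma and interleukin 17 transcripts were found in different cells. Of 275 activated cells with an Ifng UMI and 94 with one of Il17a or Il17f, 1 cell, in ctxd18t, carried both. Penk accompanied Ifng: it had a UMI in 20.0%, 46.8%, 32.3%, 51.1% and 41.4% of Ifng-positive cells and in 5.76%, 18.5%, 13.2%, 14.3% and 4.07% of the rest. Ifng-positive cells were deeper, with medians of 6204, 10571, 11949, 9479 and 10827 UMIs against 4918, 6789, 6152, 7296 and 6806, and the part of depth in this was not tested. Penk also occurred more often in cells with an Ikzf2 UMI, at 13.7%, 39.1%, 28.1%, 37.5% and 28.0%, than in those without, at 3.67%, 11.7%, 7.09%, 5.49% and 1.20%. The cells with Ikzf2 were deeper too, at medians of 5246, 10575.5, 9937, 8232 and 8227 UMIs against 4817.5, 5418, 5740, 6998.5 and 6708.5. The part of depth in this was not tested either.

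Other helper products were sparse. Il10, an inhibitory cytokine, was at 38.0, 30.3, 13.2, 34.9 and 9.66 CPM, from 22, 19, 5, 18 and 16 cells. Il2, the T-cell growth factor, was at 12.8, 6.93, 9.29, 13.5 and 2.62 CPM, and Il21, which helps B cells, at 14.9, 10.9, 12.8, 29.7 and 2.29 CPM. A UMI of Il4, Il5 or Il13, the type 2 cytokines, was found in 6, 33, 22, 12 and 4 cells, which is 1.88%, 7.60%, 8.40%, 3.68% and 0.506%, against at most 0.417% of B cells. Thinned to 2000 UMIs the shares were 1.56%, 3.00%, 3.44%, 0.920% and 0.127%, from 1 to 13 cells. Of the follicular helper list, Cxcr5 was at 21.6, 8.78, 8.52, 21.8 and 2.78 CPM and Maf, which drives Il10 and Il21, at 297, 134, 161, 271 and 110 CPM.

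Costimulatory and inhibitory receptors gave a second view of activation. Tnfrsf9 (4-1BB) was at 244, 532, 550, 442 and 122 CPM, with a UMI in 27.8%, 55.5%, 53.1%, 34.7% and 12.8% of the cells. Tnfrsf4 was at 420, 485, 478, 339 and 107 CPM. Pdcd1 (PD-1), an inhibitory receptor induced by antigen, was at 130, 253, 221, 260 and 97.1 CPM, and Havcr2 (TIM-3), associated with chronic stimulation, at 34.9, 115, 69.3, 144 and 42.2 CPM. These were lowest in combod18t or MRX. Ctla4, which competes with CD28 for B7, was in contrast highest in MRX, at 819, 619, 621, 789 and 262 CPM. Slamf6, a receptor of less differentiated T cells, was at 221, 92.9, 98.0, 229 and 167 CPM and was called lower in CTX and in Combined than in MRX. Tox, a factor of chronic stimulation, was at 778, 588, 565, 1375 and 1042 CPM and was called in none of the 4 comparisons.

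Early T-cell receptor response genes had few calls between libraries. Nr4a1, induced within hours of receptor signalling, was at 106, 153, 172, 134 and 78.6 CPM, and Cd69 at 189, 127, 173, 200 and 134 CPM. Of the 10 tested genes of this list, 1 was called in CTX against MRX (Nr4a2), 1 in combod18t against ctxd18t (Bhlhe40) and 0 in the others. In combod18t against ctxd18t 9 of the 10 were below 0, with a median of -0.63 against 0.00 over all genes. Of tested cell-cycle genes, 4 of 14 were called higher in CTX than in MRX, 2 of 12 higher in Combined than in MRX and 0 of 14 between Combined and CTX. In combod18t against ctxd18t 4 of 6 were called lower, Mki67 among them, which was called in no other comparison. Mki67, a marker of cycling cells, was at 267, 373, 303, 213 and 73.0 CPM, and Birc5 (survivin) at 59.1, 136, 103, 40.5 and 9.82 CPM. A UMI of Mki67 or Top2a was found in 29.1%, 53.5%, 50.8%, 36.5% and 18.8% of the cells, or 19.7%, 32.8%, 29.8%, 17.2% and 6.72% after thinning. Gapdh, a glycolytic enzyme, was at 815, 1424, 1324, 623 and 266 CPM. Of type I interferon genes, Ifi27l2a was at 1245, 1242, 1036, 475 and 237 CPM and Isg15 at 241, 312, 352, 164 and 56.8 CPM. Ifit1 did not follow that order, at 27.7, 20.3, 24.8, 38.7 and 12.1 CPM, and 0 of 6 tested genes of the list were called in any of the 3 comparisons among MRX, CTX and Combined.

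**Figure D4:**
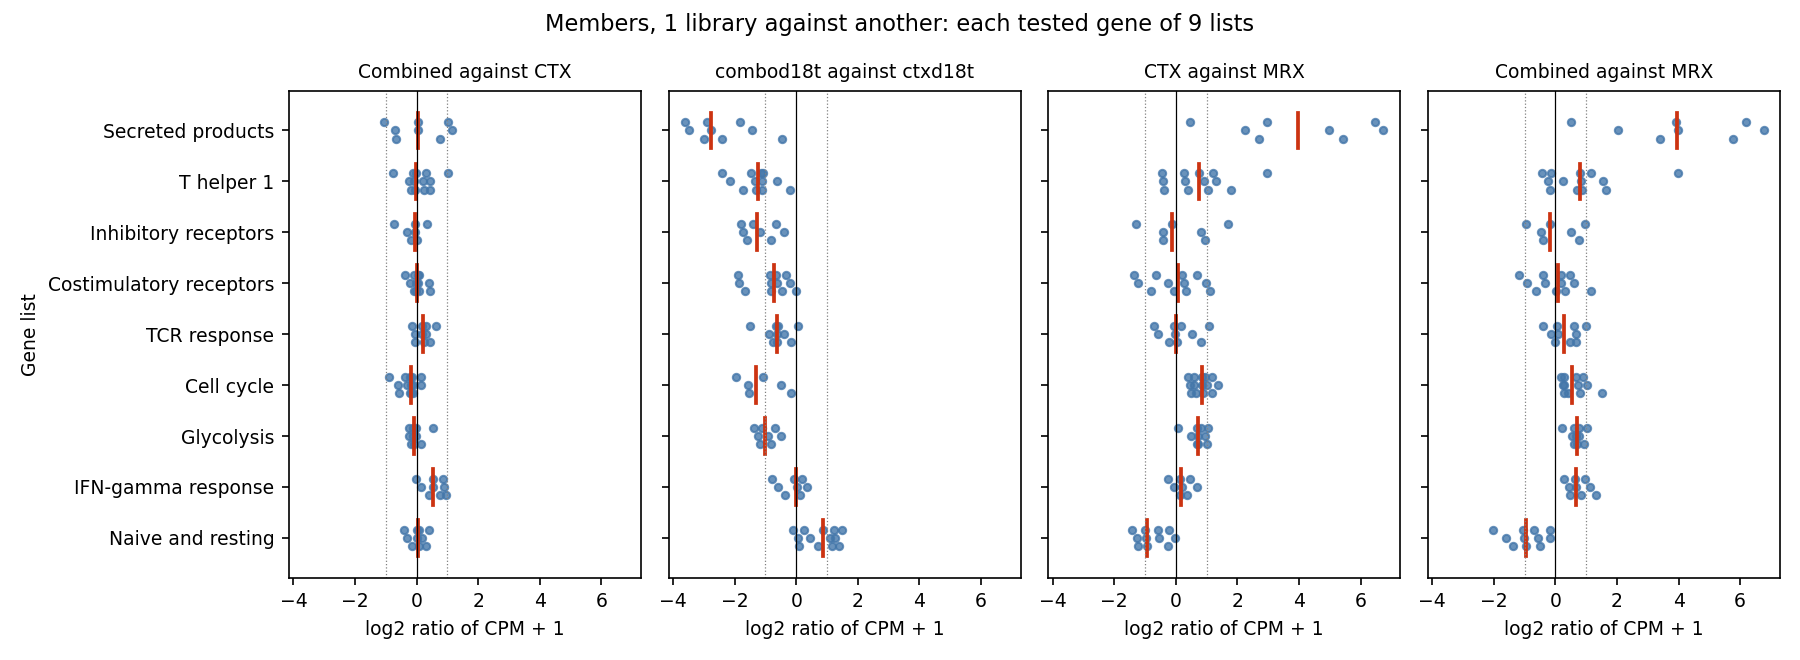
Log2 ratios of CPM + 1 of each tested gene of 9 lists in the activated cells for the 4 comparisons between libraries; points are genes, red bars medians of the tested genes, dotted lines the 2-fold limits. The tested secreted products centre at 3.96 and 3.93 in the comparisons with MRX and at -2.76 in combod18t against ctxd18t and at 0.04 in Combined against CTX.

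A pair of other CD4 populations of the same libraries gave comparisons that are replicated over 5 libraries. Resting conventional CD4 cells (44, 71, 35, 24 and 216 cells) passed the same gate with 0 UMIs of the 4 activation genes. The split uses those genes, so genes that accompany them separate with it, and the test shows only which other genes do. Counts were summed per library and compared with edgeR's quasi-likelihood test with the library as a block; a call needs a Benjamini-Hochberg adjusted p under 0.05 and a fold of at least 1.5. Of 9085 genes, 233 were higher in the activated cells (2.56%) and 72 lower (0.793%). In 4 of 5 libraries, all but MRX, the resting sums also held more neutrophil transcripts. These were at 23.8, 445, 714, 4723 and 3063 CPM against 182, 74.6, 61.6, 649 and 37.7 CPM. The macrophage marker sums of the resting cells were 1106, 4331, 2545, 1877 and 854 CPM. Neither marker list had a called gene. Clec4d, a myeloid gene outside both lists, was called lower in the activated cells. It was at 15.4, 31.7, 32.9, 40.8 and 10.5 CPM there and at 28.6, 62.1, 58.2, 256 and 28.0 CPM in the resting cells. The lower calls thus included a gene of myeloid cells.

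Several receptors and activation genes rose in the activated cells. Tnfrsf4 was higher in 5 of 5 libraries, with resting levels of 52.4, 35.1, 52.9, 66.8 and 10.0 CPM (log2 fold change 3.13, SE 0.20, edgeR adjusted p = 3.5e-05). Il2ra, the high-affinity interleukin 2 receptor chain, had a log2 fold change of 4.75 (SE 0.33, edgeR adjusted p = 3.8e-05), from 53.5 to 164 CPM in the activated cells and at most 9.53 CPM in the resting ones. Of 12 tested costimulatory receptors 8 rose, and of 10 inhibitory receptors 3 rose, Ctla4 (2.35), Nt5e (2.90) and Pdcd1 (2.82). Of the 8, 5 kept their call without Combined, where Cd28, Slamf1 and Cd5 lost theirs, and 6 or 7 without each other library. The call of Pdcd1 was lost without MRX, CTX, Combined or combod18t, with an edgeR adjusted p of up to 0.12. Of 14 tested T-cell receptor response genes 4 rose, Il2ra, Bhlhe40, Nr4a1 and Nfatc1, of which the last 2 lost their call without MRX or CTX. The other 10 did not pass, Cd69, Egr1, Myc and Irf4 among them. Bhlhe40, a factor needed for cytokine production by helper cells, rose by 2.75, and Rora, a factor of the type 17 list, by 2.89.

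Some genes of each helper list rose. Of the T helper 1 list 9 of 15 tested genes rose, of the type 17 list 5 of 7, of the type 2 list 3 of 4, of the follicular list 3 of 7 and of the secreted products 4 of 11, with 0 falling. Of these lists 0, 3, 4, 3 and 7 genes were not tested. Of the 5 type 17 genes called, Il17f, Il17a and Il23r had no resting count and passed the filter through the activated cells alone, so the tally is partly set by the filter. Il17a is also 1 of the 4 secreted products called. Ifng was at 0, 0, 0, 11.1 and 0.717 CPM in the resting cells (log2 fold change 6.27, SE 0.51, edgeR adjusted p = 0.00012). Penk was at 0, 0, 0, 128 and 2.15 CPM there (5.62, SE 0.54, edgeR adjusted p = 0.00027). Il17f, Il17a, Il23r, Ccr8, Scin, Sostdc1 and Fbn2 had 0 counts in all 5 resting sums. The limit that a count of 0 allows, 3 counts of the 2343642 resting counts of all libraries together, was set against the activated level of each library weighted by its resting counts. On this measure Il17f was at least 14.4-fold higher in the activated cells, and Il17a and Il23r, part of the interleukin 23 receptor, at least 10.3-fold each. Scin, an actin-severing protein, was at least 31.3-fold higher. Among regulatory genes 8 of 10 tested rose, and 3 were not tested. Of the 8, Ccr8 had no resting count and passed the filter through the activated cells alone. Ikzf2 rose by 1.94 and Nrp1 by 1.95, and the calls of both were lost without CTX, Combined or combod18t (edgeR adjusted p of up to 0.11 and 0.12). Without combod18t Itgae lost its call as well (edgeR adjusted p = 0.055), which leaves 5 of the 8.

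Some naive-type genes fell. Of 13 tested, 6 were lower and 7 did not pass. The lower genes included Satb1 (-1.35), Lef1 (-1.66, SE 0.38, edgeR adjusted p = 0.034), Bach2 (-1.33), S1pr1 (-1.16) and Klf2 (-1.33). The resting level of Lef1 was 1201, 1320, 1354, 1080 and 2118 CPM, against 402, 209, 155, 767 and 1735 CPM in the activated cells, so the gap was narrowest in the last 2 libraries. Txk and Ppm1l were lower as well (-1.41 and -1.49). The calls of these named genes did not hold without any one of the MRX, CTX or Combined libraries: with 1 library left out the edgeR adjusted p of Lef1 ran from 0.010 to 0.13 and that of Satb1 from 0.0030 to 0.072, and the direction stayed. None of 15 tested cell-cycle genes, 12 type I interferon genes or 9 interferon gamma response genes passed the test, and of 11 glycolysis genes 1 did, Hk2 (1.21), which failed it with any 1 library left out (edgeR adjusted p = 0.059 to 0.19). Over all genes, 1593 had an unadjusted p under 0.05. The lower calls were the less stable: without the CTX library 10 genes were lower in place of 72, without the Combined library 17, without MRX 30, and without combod18t 132. The higher calls went from 233 to 135 without CTX and to 125 without Combined, and with no library block they were 104 higher and 0 lower.

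Foxp3+ CD4 cells, which passed the same CD3, Cd4, Cd8, C1q and Cd79a gate with at least 1 Foxp3 UMI, differed in 409 genes higher (4.28%) and 389 lower (4.07%) in the activated cells, of 9567 tested. The split uses Foxp3, and only the activated cells had to carry at least 2 UMIs of the 4 activation genes. Genes that accompany Foxp3 or the activation genes, regulatory genes among them, therefore separate with it. The test shows only which other genes do. Of 12 tested secreted products 3 rose (Ccl1, Ifng and Xcl1) and 1 fell (Il10, -0.77). Ccl1 was at 3.11, 11.5, 17.6, 5.83 and 1.20 CPM in the Foxp3+ cells (log2 fold change 5.15, SE 0.29, edgeR adjusted p = 3.7e-05). Ifng was higher in the activated cells in 5 of 5 libraries (3.64, SE 0.50, edgeR adjusted p = 0.0019), and Xcl1 in 4 of 5 (2.60, edgeR adjusted p = 0.016). The call of Xcl1 was lost without CTX, Combined or ctxd18t (edgeR adjusted p of up to 0.073), and that of Il10 without CTX (0.064). Fasl, which triggers death through Fas, was at 36.5, 46.9, 49.2, 103 and 57.5 CPM against 4.66, 6.0, 12.9, 24.3 and 13.2 CPM (2.36, SE 0.18). Penk did not pass the test against these cells, at 412, 213, 237, 597 and 308 CPM there (0.82, SE 0.47, edgeR adjusted p = 0.31).

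Tcf7, a factor of naive and memory T cells, was 2.43 higher on the log2 scale (SE 0.13, edgeR adjusted p = 3.5e-05), at 292, 145, 180, 352 and 424 CPM against 35.7, 26.5, 42.0, 67.0 and 98.1 CPM. Of 13 tested naive and resting genes 9 rose and 0 fell, and of 7 follicular helper genes 4 rose, Bcl6 (1.20), Sh2d1a (1.15), Tox2 (1.76) and Cxcr5 (1.54), and 2 fell, Izumo1r and Maf. Cxcr5 kept its call without combod18t and lost it without any other library (edgeR adjusted p of up to 0.16). Of 12 tested regulatory genes 10 fell, among them Il2ra (-2.66), Ikzf2 (-2.27), Ikzf4 (-2.07), Lrrc32 (-2.80) and Klrg1 (-3.37). Il2ra thus stood between the resting and the Foxp3+ cells, with 730, 753, 758, 681 and 615 CPM in the latter.

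Gzmb (granzyme B) was lower in the activated cells in 5 of 5 libraries, at 95.6, 126, 172, 94.1 and 42.7 CPM against 311, 500, 584, 308 and 146 CPM (-1.73, SE 0.09, edgeR adjusted p = 3.5e-05). Tnfrsf9 (-1.79), Tnfrsf4 (-1.36), Tnfrsf18 (-1.19) and Ctla4 (-1.67) fell as well, so these receptors were lowest in resting cells and highest in Foxp3+ cells. Il1rl1, the interleukin 33 receptor, fell by 3.15 on the log2 scale, at 33.4, 42.5, 48.8, 21.8 and 29.1 CPM against 356, 201, 322, 364 and 394 CPM. Of 16 cell-cycle genes 9 fell, Mki67 by 0.95 and Top2a by 0.82. Of the 9, 4 kept their call without CTX, 4 without Combined, 4 without ctxd18t, 6 without MRX and 7 without combod18t. Mki67 kept its call without combod18t alone (edgeR adjusted p of up to 0.12), and Top2a lost its call without ctxd18t or combod18t (up to 0.072). Of the marker lists, Igkc (-2.29), Ighm (-1.56) and Epcam (-2.48) were lower and Klrd1 (1.61, lost without ctxd18t) higher in the activated cells; their part in the other differences was not tested. With cells holding other-lineage UMIs left out of both groups the calls were 169 higher and 197 lower, and with no library block 69 higher and 108 lower. Without ctxd18t they were 260 higher and 239 lower.

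**Figure D5:**
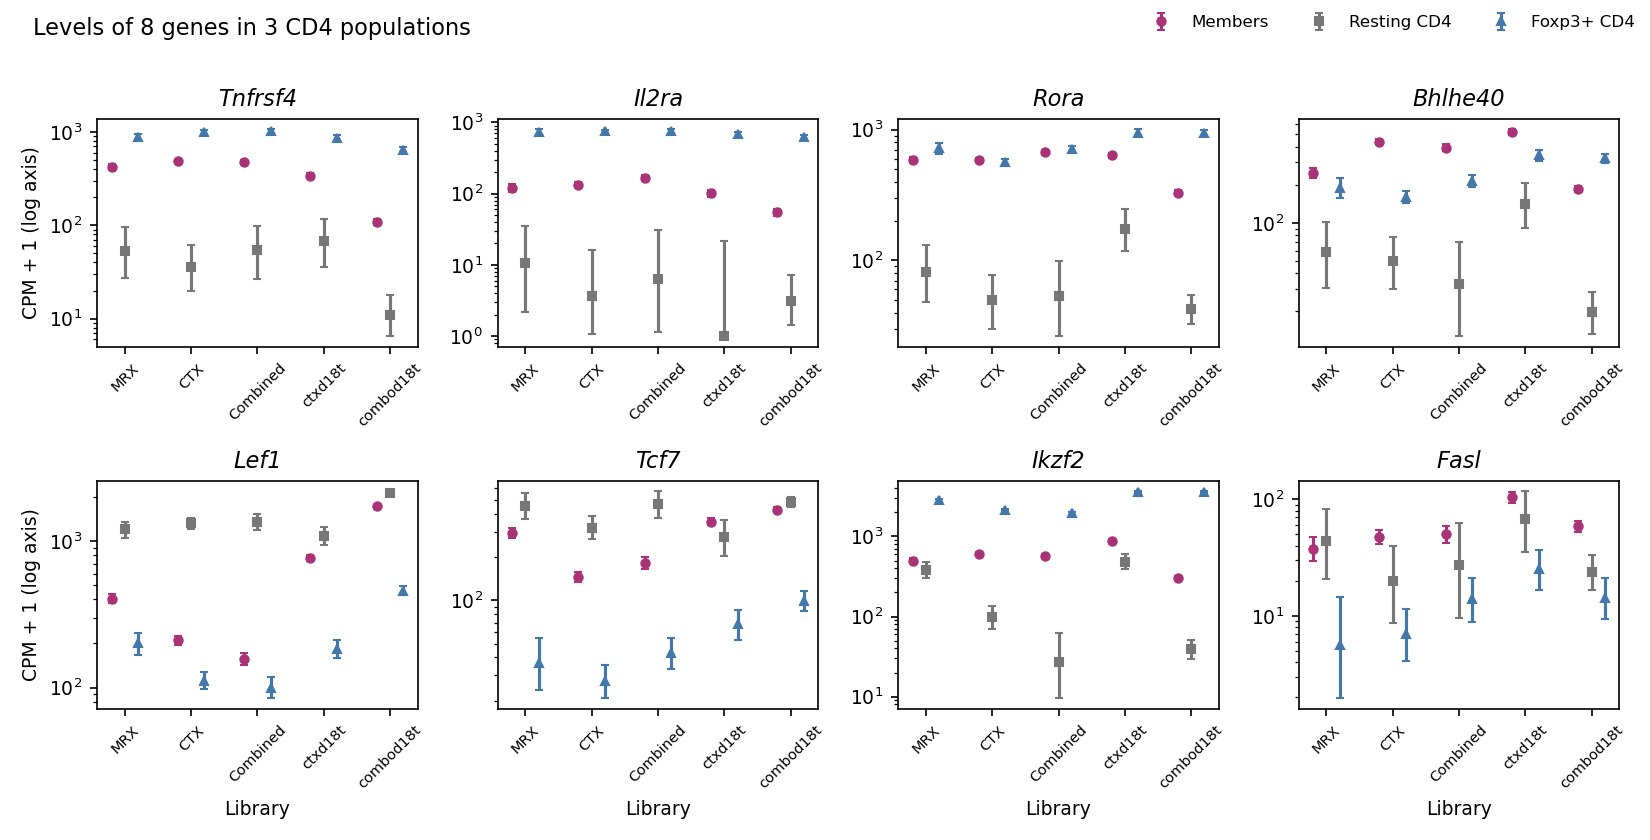
Levels of 8 genes (CPM + 1, log axis) in activated (members), resting and Foxp3+ CD4 cells of each library; points are levels of summed counts and bars exact 95% Poisson intervals. Tnfrsf4 and Il2ra of the activated cells lie between the resting and the Foxp3+ cells in all 5 libraries, while Lef1 lies between them in the opposite order.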

How the data were processed

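Single-cell gene expression libraries were made from sorted CD45+ tumour cells with a 3′ multiplexed droplet assay. The deposited values are raw UMI counts per gene and cell, produced by the authors in Cell Ranger 9.0.1, as stated in the protocol text and per the file headers; the submitters' processing notes also name Seurat 5.2.0 and GRCm39. The counting settings are not given in the sources used here. Totals per library ran from 39820290 to 100733879 UMIs over 33696 genes, and 52 to 166 barcodes per library were removed by the filters of at least 200 genes and at most 15% mitochondrial counts. No doublet caller was run; cells above the 95th percentile of UMIs of their library, and cells with at least 2 other-lineage UMIs, were left out as alternatives.

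Counts were summed over the cells of a population in each library and scaled to CPM. With 1 library per label, libraries were compared by log2 ratios of CPM + 1, with no p. Their exact conditional binomial intervals are those of the ratio of CPM without the added 1, which departs from the printed ratio where levels are low. Levels have exact Poisson intervals and shares exact Clopper-Pearson intervals, and all intervals are at 95%. Differences of shares have Newcombe intervals. Populations were compared over 5 libraries with edgeR 4.0.16 in R 4.3.3 (TMM, filterByExpr, quasi-likelihood test, Benjamini-Hochberg adjustment over all genes tested), leaving out the genes of the gates and mitochondrial genes. The library was a block, since both populations of a pair come from the same library; nothing says that libraries are separate animals, so p-values measure the spread between these libraries. DESeq2 1.42.0 was an alternative. Thinning, intervals and figures used Python 3.11.15, numpy 2.4.6, scipy 1.17.1, pandas 2.3.3 and matplotlib 3.10.9. On simulated counts, the edgeR step recovered 55% of 2-fold and 96% of 4-fold changes against resting cells over 9051 genes, and 80% and 98% against Foxp3+ cells over 9562 genes.

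The cells, gene lists and tests were chosen with earlier results of these data known. Named genes are those of the lists, the 10 highest and 10 lowest per library comparison by the bound of the interval nearest 0, and the 10 highest and 10 lowest fold changes per population test. Leaving out or keeping only cells with a Lef1 UMI, and leaving out the top cell of a gene, were added after seeing the data.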

Additional observations from a re-analysis of the deposited data

Results flagged for a closer look

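For 6 genes the activated cells were more than 2-fold higher in Combined than in CTX and more than 2-fold lower in combod18t than in ctxd18t. The difference between these pairs of libraries was not tested, since each label has 1 library. Ifng had a log2 ratio of 1.01 for Combined against CTX and -2.40 for combod18t against ctxd18t, and Xcl1 had 1.15 and -1.43. The cytotoxic genes Prf1 (1.36 and -1.28) and Gzmc (1.77 and -5.83) showed the same opposite signs, as did the natural killer receptor gene Klre1 (1.73 and -1.28). Ccr6, a receptor of type 17 cells, had 1.52 and -1.31, at 8.55 and 26.3 CPM in CTX and Combined and at 14.9 and 5.40 CPM in ctxd18t and combod18t. Several of these signs rested on few cells or on cells with transcripts of other lineages. Among cells without other-lineage UMIs Combined against CTX was -1.63 for Ifng, -0.68 for Xcl1, -0.80 for Prf1 and 0.00 for Klre1. In the same cells combod18t against ctxd18t was 0.35 for Prf1 (16.7 against 12.9 CPM) and 1.11 for Klre1. For Prf1 in ctxd18t 1 cell held 56.7% of the counts, and without the top cell of each library combod18t against ctxd18t was -0.32 for Prf1 and -1.56 for Gzmc. Gzmc was -1.74 for Combined against CTX without cells holding Il2ra and Ikzf2 UMIs, and 1 cell held 84.4% of its Combined counts and 96.7% of its ctxd18t counts. Ccr6 and Klre1 were under 50 CPM in all 4 libraries, below the level required of a called gene.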

How the results depend on the processing

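Of the alternatives, 56 of 88 counts of genes between libraries, 13 of 26 counts against resting cells and 18 of 26 against Foxp3+ cells stayed within 1.5 times, and 45 of 60 differences of shares stayed within the counting interval of the reported difference. The cause was not tested where a value moved, unless fewer cells or genes entered. For Combined against CTX (5 higher, 5 lower), the higher count was 29 after thinning, 44 without cells holding other-lineage UMIs, 9 without cells holding Il2ra and Ikzf2 UMIs, 217 with a filter of 10 counts alone, 19 without Lef1-positive cells and 21 among Lef1-positive cells. The lower count was 3 with a pseudocount of 10 CPM, 16 when the CPM of single cells were averaged, 28 after thinning, 17 without cells of high UMI count, 23 without other-lineage cells, 13 without cells holding Il2ra and Ikzf2, 194 with the count filter alone, 14 without Lef1-positive cells and 13 among them. For combod18t against ctxd18t (83 higher, 272 lower), the count filter alone gave 423 and 1222, and leaving out Lef1-positive cells gave 116 lower; median-of-ratios scaling gave 106 higher and 238 lower. For CTX against MRX (133 and 98), the higher count was 88 without other-lineage cells, 757 with the count filter alone and 214 among Lef1-positive cells; the lower count was 59 with a pseudocount of 10, 47 for the mean of cells, 55 without other-lineage cells, 54 without cells holding Il2ra and Ikzf2, and 413 with the count filter alone. For Combined against MRX (107 and 57), the higher count was 71 with a pseudocount of 10, 719 with the count filter alone and 236 among Lef1-positive cells, and the lower count was 24 for the mean of cells, 327 with the count filter alone and 108 among Lef1-positive cells.

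Log2 ratios of at least 1 in size that changed sign were as follows. Without other-lineage cells, Combined against CTX gave Gm15056 0.37, Gzma -0.91, Ifng -1.63, Prf1 -0.80 and Xcl1 -0.68; combod18t against ctxd18t gave Apoe 0.33, Fcer1g 0.78, Klrd1 0.98, Klre1 1.11, Lcn2 0.34, Ngp 0.74, Prf1 0.35, S100a8 0.26, Tmem176b 0.30 and Tyrobp 0.34; CTX against MRX gave Gm15056 -0.032, Klrd1 -0.47, Ly6i -0.99 and S100a9 0.68; Combined against MRX gave Lyz2 -0.033; and the test against Foxp3+ cells gave Stmn1 0.30. Without Lef1-positive cells, Combined against CTX gave Ccl4 0.57, combod18t against ctxd18t gave Camp 0.68, Nrp1 0.14, Rrm2 0.27, Satb1 -0.11 and Stmn1 0.064, CTX against MRX gave G0s2 0.23, S100a8 1.13 and S100a9 2.49, and Combined against MRX gave G0s2 0.56, S100a8 1.16 and S100a9 2.50. Among Lef1-positive cells alone Ifng was -0.12 for Combined against CTX. Without cells holding Il2ra and Ikzf2, Gzmc was -1.74 for Combined against CTX and Csf2 1.40 for combod18t against ctxd18t. Without the top cell of the gene, Camp was 0.12 and Ngp 0.16 for combod18t against ctxd18t.

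The difference of shares of all cells between combod18t and ctxd18t was 8.30 points with at least 3 activation UMIs, 2.42 after thinning and 9.47 without other-lineage cells, and that between Combined and MRX was -1.14 without other-lineage cells. Within the conventional CD4 gate, Combined against CTX was 12.4 without other-lineage cells, combod18t against ctxd18t -28.2 with at least 3 UMIs, CTX against MRX -13.3 after thinning and -17.8 without other-lineage cells, and Combined against MRX -4.58 and -5.45 under the same alternatives. Of the cells past the CD3 gate, combod18t against ctxd18t was 2.19 with at least 3 UMIs and -0.533 after thinning, CTX against MRX -0.0436 after thinning and -1.63 without other-lineage cells, and Combined against MRX -0.546 without them. In these shares only activated cells with other-lineage UMIs were left out, and the other cells stayed in the base.

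Against resting cells (233 higher, 72 lower), omitting the low-count filter gave 700 and 235, DESeq2 gave 173 lower and a gate of at least 3 UMIs 121 lower. The fit with no library block, which drops the pairing of populations by library, gave 104 and 0, with 913 genes at an unadjusted p under 0.05. Leaving out 1 library gave 125 to 282 higher and 10 to 132 lower. Against Foxp3+ cells (409 higher, 389 lower), omitting the filter gave 736 and 613, leaving out other-lineage cells 169 and 197, and the fit with no library block, without that pairing, 69 and 108. Leaving out 1 library gave 260 to 462 higher and 239 to 360 lower. Depth limits the rarer products: Csf2 rested on 1 to 30 cells of a library and Il10 on 5 to 22.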
